A study of Mus musculus with 2 samples.

Results

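Cyclins are the regulatory subunits that switch on cyclin-dependent kinases (CDKs), and CDK inhibitors are the small proteins that hold those kinases back. The 10 genes described here are the D-type cyclins of G1 (Ccnd1, Ccnd2, Ccnd3), the E-type cyclins of the G1/S transition (Ccne1, Ccne2), the S and G2 phase cyclin Ccna2, the mitotic B-type cyclins (Ccnb1, Ccnb2) and the CDK inhibitors Cdkn1b and Cdkn2c. They were taken from a list of gene symbols, and their array probes are those whose RefSeq transcript accession belongs to 1 of these genes. The 10 genes stand among 20284 genes named on the array, and 15151 of those were measured on both arrays.

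Total liver RNA came from male C57BL/6 mice with liver fibrosis that were given recombinant TSG-6 protein, a secreted hyaluronan-binding protein, or PBS as its control, by the intravenous route. Livers were taken 2 weeks later, and equal amounts of RNA from 3 mice made up each pool, which was hybridised to 1 Agilent array in 1 colour. Both groups were fibrotic, no liver without fibrosis was analysed here, and the way fibrosis was induced, the protein dose and the age of the mice are not given in the sources used here. With 1 pool per group there is no replicate check, so no test was made, no p-value is given and every value compares only these pools. Array and treatment cannot be told apart.

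In a dividing cell, D-type cyclins respond to growth signals and pair with CDK4 and CDK6, which start to inactivate the retinoblastoma protein and so release E2F transcription factors. E-type cyclins, themselves E2F targets, then pair with CDK2 to start DNA replication, cyclin A2 carries the cell through S phase and G2, and B-type cyclins pair with CDK1 to drive mitosis. Most cells of an adult liver do not divide, but hepatocytes re-enter the cycle after injury, and stellate cells, ductular cells and infiltrating blood cells divide in the fibrotic liver. In whole-liver RNA, fewer cells of a type and less RNA per cell cannot be told apart.

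The G1/S cyclin Ccne1 was the lowest of these genes in the TSG-6 pool, 6.04-fold lower. The other G1/S cyclin, Ccne2, was dim and 1.77-fold lower, but under normexp background correction its log2 difference of -0.17 lay above those of Ccna2 (-0.41) and Ccnd2 (-0.47). The mitotic cyclins lay near the PBS pool, with Ccnb1 at a log2 difference of -0.02 and Ccnb2 at 0.24. Of the G1 cyclins, Ccnd1 and Ccnd2 were 1.38-fold and 1.39-fold lower, while Ccnd3 differed by 0.03. The 2 CDK inhibitors differed by 0.04 (Cdkn1b) and 0.33 (Cdkn2c). All differences are on the log2 scale, PBS values subtracted from TSG-6 values, after each array was scaled to its 75th percentile. Of 9 members with a usable value, 1 was at least 2-fold lower, set against 4.29% of all genes measured, and 0 were at least 2-fold higher, set against 2.94%. Past 2-fold in either direction were 7.23% of all genes.

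Promoter sequence was examined because genes of the G1/S step and genes of mitosis are known to carry different control elements. E2F sites are typical of G1/S genes, and mitotic genes typically carry the cell cycle homology region (CHR) with CCAAT boxes bound by NF-Y. RefSeq promoter windows on build GRCm38.p6, from 250 bases before to 50 bases after a gene's start, were found for 6 of the 10 members, in 8 windows. The windows of Ccne1, the member with the largest difference, and of the 2 mitotic cyclins, which lay near the PBS pool, are shown 5′ to 3′ on the gene's strand. Capitals mark matches to the searched words on either strand. The Ccne1 window lies at chr7:38107441-38107740, that of Ccnb1 at chr13:100786437-100786736 and that of Ccnb2 at chr9:70421505-70421804, all on the minus strand.
Ccne1: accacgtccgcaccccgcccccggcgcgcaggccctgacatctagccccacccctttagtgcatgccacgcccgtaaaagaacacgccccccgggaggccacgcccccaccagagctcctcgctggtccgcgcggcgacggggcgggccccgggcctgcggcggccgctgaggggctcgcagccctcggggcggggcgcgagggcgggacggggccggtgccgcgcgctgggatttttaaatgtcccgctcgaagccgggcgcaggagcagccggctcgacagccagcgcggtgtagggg
Ccnb1: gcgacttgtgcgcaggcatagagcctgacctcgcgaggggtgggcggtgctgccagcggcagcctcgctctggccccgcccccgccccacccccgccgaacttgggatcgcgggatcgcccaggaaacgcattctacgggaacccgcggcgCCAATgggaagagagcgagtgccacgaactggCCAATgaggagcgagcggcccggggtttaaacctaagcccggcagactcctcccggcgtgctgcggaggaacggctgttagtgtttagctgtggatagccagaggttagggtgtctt
Ccnb2: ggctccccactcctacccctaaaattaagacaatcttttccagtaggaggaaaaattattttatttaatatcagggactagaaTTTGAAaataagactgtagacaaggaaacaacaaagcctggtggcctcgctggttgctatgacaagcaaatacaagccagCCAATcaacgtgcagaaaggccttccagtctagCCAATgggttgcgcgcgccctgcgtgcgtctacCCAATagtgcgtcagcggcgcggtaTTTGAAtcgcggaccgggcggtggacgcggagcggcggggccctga

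The Ccnb2 window held 3 CCAAT words in the same orientation, starting 87, 54 and 21 bases before the gene's start, and the CHR word TTTGAA at 2 places, starting 167 bases before the start and at base 5 after it. In the Ccnb1 window, 2 CCAAT words began 99 and 67 bases before the start, with no CHR word. No searched word was found in the Ccne1 window, but only exact words were searched, so E2F sites with other letters would be missed. The words were CCAAT itself, TTTGAA or TTCGAA for the CHR, and TTTCCCGC, TTTCGCGC, TTTGCCGC or TTTGGCGC for E2F, each read on both strands, and no matches of different words overlapped in the windows shown. Over all members' windows, CCAAT was found in 5 of 8, a CHR word in 1 of 8 and an E2F word in 0 of 8. Among all 32851 promoter windows of the table, CCAAT was found in 37.4%, a CHR word in 19.2% and an E2F word in 2.26%. These matches describe letters and do not show that a factor binds there, and a missing word does not show that a site is absent.

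Ccne1 encodes cyclin E1, which activates CDK2 at the entry into S phase. Its brighter probe gave a processed signal of 3432.5 for PBS and of 445.6 for TSG-6. Its levels relative to the arrays' 75th percentiles were 0.12 and -2.48 on the log2 scale, a difference of -2.60. A dimmer probe of the same transcript gave 148.3 and 32.6, a log2 difference of -1.84 or 3.57-fold lower. Both probes were thus lower in the TSG-6 pool, by different amounts. Only 0.436% of measured genes had a difference as low as that of the brighter probe, while 6.60% of genes in the same decile of signal were at least 2-fold lower.

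Ccne2 encodes cyclin E2, the second partner of CDK2 at this step. It was a dim gene on both arrays, with a signal of 89.4 in the PBS pool and 39.5 in the TSG-6 pool and 7.09% of measured genes dimmer. Its log2 difference was -0.83, 1.77-fold lower. Normexp background correction, as run here, started from median spot signals and local background rather than from processed signals, and added an offset of 50. An offset of that size shrinks the differences of dim spots whatever their background. Under this correction, the Ccne2 difference was -0.17, and that of the dim Ccne1 probe was -0.83. The bright Ccne1 probe stood at -2.31 under the same correction.

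Ccna2 encodes cyclin A2, which pairs with CDK2 in S phase and later with CDK1. Its single probe read 1347.4 in the PBS pool and 704.9 in the TSG-6 pool, a log2 difference of -0.58, or a ratio of TSG-6 to PBS of 0.667. It lay above Ccne1 and below both B-type cyclins, while its order against Ccne2 depended on the background correction and its offset.

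Ccnb1 and Ccnb2 encode the B-type cyclins that activate CDK1 at mitosis. For Ccnb1, the brightest of 3 probes read 1208.5 in the PBS pool and 937.5 in the TSG-6 pool, and the other probes read 227.3 against 169.6 and 182.5 against 140.3. After scaling, the 3 Ccnb1 probes gave differences of -0.02, -0.07 and -0.03, which are all within the spot noise given below. For Ccnb2, the signals were 840.2 and 777.7, a difference of 0.24. Neither gene kept 1 direction under all scalings. Ccnb1 was at 0.27 with the 75th percentile of unflagged spots only, and Ccnb2 was at -0.17 when the arrays were scaled to the control RNAs spiked into each sample.

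Ccnd1 encodes cyclin D1, the D-type cyclin best known for its induction in regenerating liver. The only Ccnd1 probe had a spot marked as non-uniform on the TSG-6 array, so the gene has no value once such spots are left out. With the spot kept, the signal was 24419.5 in the PBS pool and 13847.5 in the TSG-6 pool, a log2 difference of -0.47. Over 8 scalings and background corrections with that spot kept, which were chosen after seeing the data, the Ccnd1 difference ran from -0.88 to -0.18.

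Ccnd2, which encodes cyclin D2, read 8647.2 and 4892.1 with no flag, also a log2 difference of -0.47. Ccnd3, which encodes cyclin D3, read 16514.3 and 13262.9 on its brighter probe and 5865.9 and 4325.8 on its other probe, with differences of 0.03 and -0.09. These 2 probes carry accessions of different Ccnd3 transcripts. The direction of Ccnd3 changed with scaling, from -0.38 with spike-in scaling to 0.32 with the percentile of unflagged spots. Ccnd2 was below 0 in all 13 settings (the main one and 12 alternatives), from -0.88 to -0.18.

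Cdkn1b encodes p27, which binds and inhibits cyclin E with CDK2. It read 18395.0 in the PBS pool and 14846.6 in the TSG-6 pool, a log2 difference of 0.04. Its direction was not fixed, with 6 of 13 settings below 0 and a range from -0.37 to 0.33. Cdkn2c encodes p18, an inhibitor of CDK4 and CDK6, and read 6491.6 and 6409.7. The Cdkn2c difference was 0.33 and was above 0 in every setting except spike-in scaling, where it was -0.08.

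**Figure D1:**
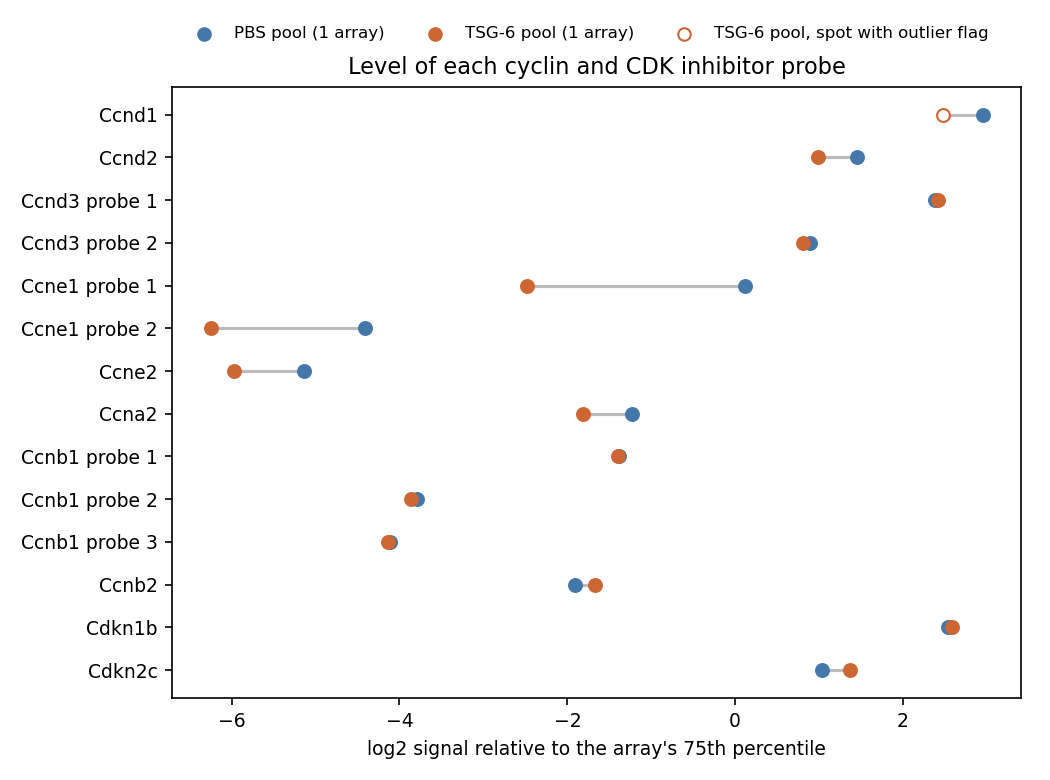
Level of every probe of the 10 genes on the PBS (blue) and TSG-6 (orange) arrays, as log2 signal relative to the array's 75th percentile, 1 array per group and no error bars. The longest lines are those of the Ccne1 probes, from 0.12 to -2.48 and from -4.41 to -6.25, and the 3 Ccnb1 probes barely separate; levels of different probes are not comparable with each other, and the open circle is the Ccnd1 spot with an outlier flag.

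Replicate spots of 1 probe gave the technical spread. The pooled SD of the log2 difference was 0.085 over 243 probes with a mean signal of at least 500, and 0.199 over 84 dimmer probes, which leaves out the spread between mice and between labelling reactions. Different probes of 1 gene disagreed more, with a pooled SD of 0.345 over 3469 genes. The difference of Ccne1 was larger than all of these. That of Ccne2, at -0.83, was larger than the SD of dim spots, but its value of -0.17 under normexp was not. Those of Ccnd3 (0.03), Ccnb1 (-0.02) and Cdkn1b (0.04) were smaller than the SD of bright spots. Ccnb2 (0.24) and Cdkn2c (0.33) exceeded the SD of bright spots but not the SD between probes of 1 gene.

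A difference between 2 members of 1 array pair does not change with any scaling that subtracts 1 constant per array. In these terms, Ccne1 was 5.98-fold lower relative to Ccnb1 and 7.13-fold lower relative to Ccnb2. Relative to the G1 cyclins it was 4.36-fold lower against Ccnd2 and 6.19-fold lower against Ccnd3. Against its inhibitor Cdkn1b, Ccne1 was 6.22-fold lower. The E-type cyclins also differed from each other, Ccne1 being 3.41-fold lower relative to Ccne2. All these folds take the brighter Ccne1 probe (-2.60), and with its dimmer probe (-1.84) each would be smaller. They also change under quantile normalization, loess and normexp, which do more than subtract a constant. Ordered from low to high, the differences ran Ccne1, Ccne2, Ccna2, Ccnd2, Ccnd1, Ccnb1, Ccnd3, Cdkn1b, Ccnb2 and Cdkn2c.

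Not all neighbours in that order can be separated. Spot noise gives an SD of 0.12 for the gap between 2 bright members and of 0.216 for 1 dim and 1 bright member. The gaps between Ccna2 and Ccnd2 (-0.11), Ccnd2 and Ccnd1 (-0.0034), Ccnb1 and Ccnd3 (-0.05), Ccnd3 and Cdkn1b (-0.01) and Ccnb2 and Cdkn2c (-0.09) were within it. Larger than it were the gaps between Ccne1 and Ccne2 (-1.77), Ccne2 and Ccna2 (-0.24, turned under normexp), Ccnd1 and Ccnb1 (-0.45) and Cdkn1b and Ccnb2 (-0.20). Passing 1 SD of spot noise does not separate 2 genes, since different probes of 1 gene spread more, with an SD of 0.345. The gaps of -0.24 and -0.20 were smaller than that SD, and the gap of -0.45 rests on the flagged Ccnd1 spot.

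By phase, the median difference was -1.71 for the 2 G1/S cyclins, -0.22 for the 2 G1 cyclins with a usable spot (-0.47 with Ccnd1 included), 0.11 for the 2 mitotic cyclins and 0.19 for the 2 CDK inhibitors, beside 0.08 over all measured genes. The G1/S median lay below the mitotic median in 13 of 13 settings, by 1.33 to 2.71 on the log2 scale. Settings that only subtract 1 constant per array cannot change this gap of 1.82, so their number adds no support. The gap moved under quantile normalization (1.91), loess (1.90), normexp (1.33), the mean over probes (1.62) and the stricter filter (2.71). Without Ccne2, which the stricter filter on dim probes removed, the G1/S value rests on Ccne1 alone, as at the wide end of that range. The G1/S median lay below that of the G1 cyclins by 1.06 to 2.38. The gap between the G1 and the mitotic cyclins was smaller, from 0.27 to 0.58. A median over 2 genes is a description of those genes and not of a phase.

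**Figure D2:**
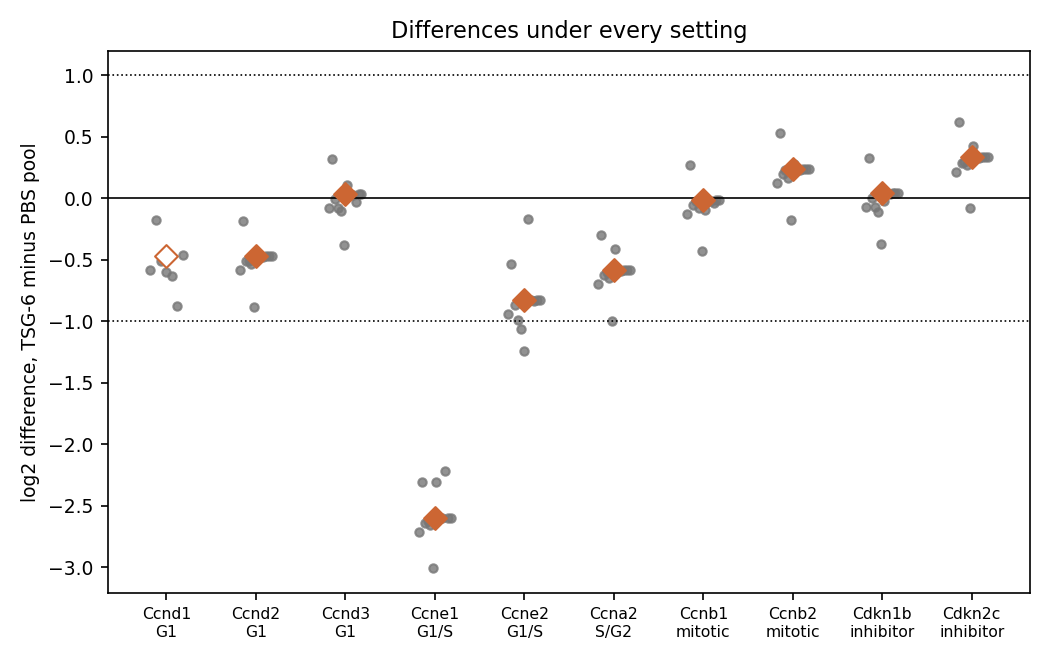
Log2 difference of each gene, TSG-6 minus PBS pool, with the value as reported (orange diamond, open for Ccnd1, whose spot had a flag) and under each alternative scaling, background correction, filter or choice of probe (grey points); dotted lines mark 2-fold. Ccne1 lies between -3.01 and -2.22 in every setting, and Ccnd3, Ccnb1, Ccnb2, Cdkn1b and Cdkn2c have settings on both sides of 0.

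Of 6 measured CDKs and CDK subunits, 2 were at least 2-fold lower, beside 4.29% of all genes measured. Cdk1, the kinase of the B-type cyclins, was 2.24-fold lower with the brightest of 3 probes, from a signal of 1530.3 in the PBS pool to 535.5 in the TSG-6 pool. The Cdk1 probes disagreed, running from -1.16 to 0.44, and their mean gave -0.47. Cdk2, the kinase of the E-type cyclins, differed by -0.24. Cdk4, a partner of the D-type cyclins, differed by -0.03, the lowest of 3 Cdk4 probes being at -0.49, and the dim Cdk6 by 0.35 at a signal of 60.6 in the PBS pool and 60.5 in the TSG-6 pool. Cks1b, a small subunit that docks CDKs to their substrates, was 2.30-fold lower, and both its probes were lower (-1.30 and -1.20). With the percentile of unflagged spots Cks1b was under 2-fold, at -0.91. Cdk7, the kinase that activates the others, differed by -0.46, and its other probe by 0.04.

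The other CDK inhibitors did not share 1 pattern. Cdkn2b, which encodes p15, an inhibitor of CDK4 and CDK6 induced by TGF-beta, was 2.60-fold lower, with signals of 2155.4 and 650.1 and with a second probe at -2.16. Cdkn1a, which encodes the p53 target p21, was 1.95-fold lower, with signals of 4523.9 and 1822.2 and with a second probe at -0.65. Cdkn1c differed by 0.01, Cdkn2a by -0.12 and Cdkn2d by 0.13, and these 3 changed direction over the settings. Together with Cdkn1b and Cdkn2c, 1 of the 7 CDK inhibitor genes was thus at least 2-fold lower, beside 4.29% of all genes. Cdkn1a was a second in 3 of 13 settings, down to -1.37 with spike-in scaling.

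Further along the pathway, 12 of 69 measured genes in 8 lists of other cell cycle genes were at least 2-fold lower and 0 were 2-fold higher, beside 4.29% lower and 2.94% higher of all genes, with a median of -0.24 beside 0.08 for all genes. Lists and members were chosen with results of these data known, so these counts are a description. S phase and proliferation markers were the lowest list, with a median of -0.76. In that list 18 of 19 measured genes were below 0, beside 42.5% of all genes. At least 2-fold lower were 6 of them, against 4.29% of all genes. The largest differences of the list were those of Cdc6, which loads the replicative helicase (-2.17), and of the helicase subunits Mcm2 (-1.74) and Mcm5 (-1.63). Its genes of mitosis were also below 0, named here after their values were seen. These were the dim Aurkb (-1.21), Aurka (-0.74), Bub1 (-0.69), Birc5 (-0.39) and Plk1 (-0.06). The only gene of that list above 0 was the thymidine kinase Tk1 (0.29), chosen here after its value was seen.

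Among pocket proteins and E2F factors, with a median of -0.01, 1 of 11 was at least 2-fold lower, beside 4.29% of all genes. That gene was E2f2, an activator of G1/S genes, with a signal of 2164.8 in the PBS pool and 446.1 in the TSG-6 pool, 3.81-fold lower. Tfdp2, a dimerisation partner of E2F factors, was at 0.70 and E2f7, a repressor, at -0.62, its 2 probes running from -0.62 to 0.17. Of the kinases and phosphatases that switch CDK1 and CDK2, 3 of 5 were measured. Pkmyt1, which inhibits CDK1, was 2.75-fold lower, and the CDK-activating phosphatases Cdc25a and Cdc25b were at -0.69 and -0.14.

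The list of mitotic transcription factors, which includes subunits of the MuvB complex, had a median of -0.07. Mybl2, which works with the MuvB complex, was 2.01-fold lower, and at least 2-fold lower in 11 of 13 settings (-0.72 with the percentile of unflagged spots). Foxm1, which acts later in G2, was at -0.50, and the MuvB subunit Lin37 at 0.41. In that list 1 of 6 genes was at least 2-fold lower, beside 4.29% of all genes. In the list of cyclin ubiquitination, 0 of 8 genes passed 2-fold, beside 7.23% of all genes in either direction. Ube2c was at -0.61, the mitotic activator Cdc20 at -0.48 and Cul1 at 0.22. Other cyclins, most of which do not drive the cycle, had a median of 0.32 over 11 genes with 0 past 2-fold, beside the same 7.23%. They were led by Ccno, a cyclin of multiciliated cells (0.88), Ccng2, linked to cell cycle exit (0.58), and the germ cell cyclin Ccna1 (0.54), the last dim at signals of 78.3 and 89.2.

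**Figure D3:**
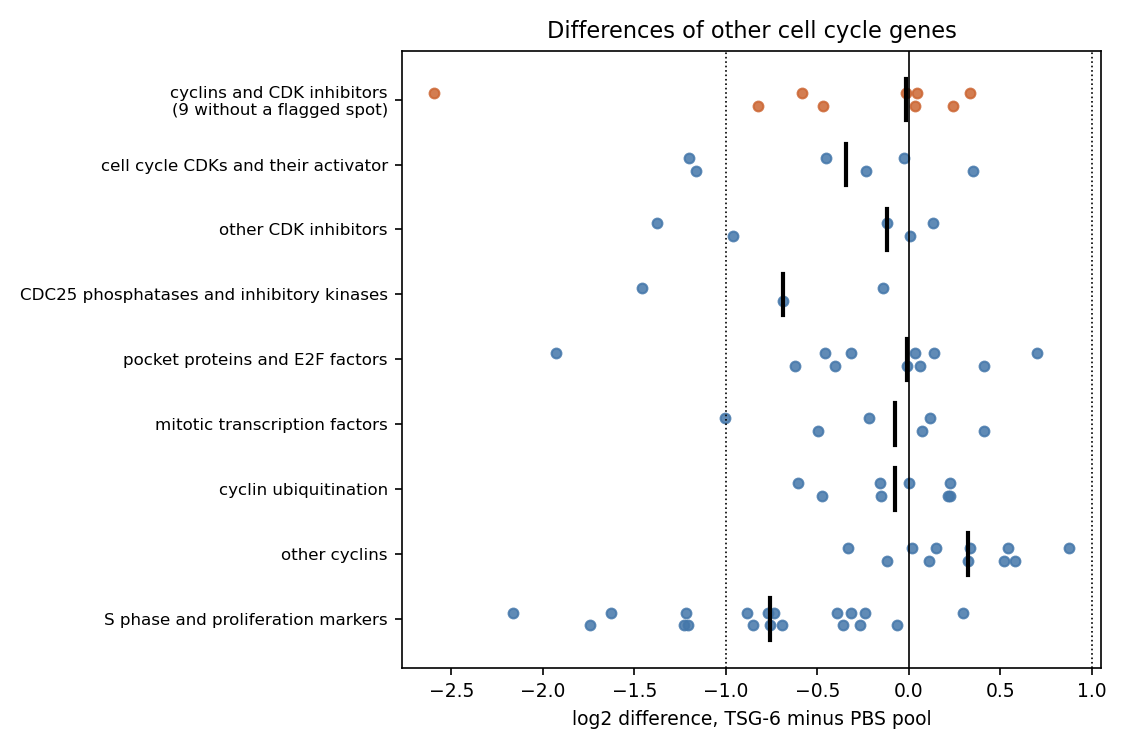
Log2 difference, TSG-6 minus PBS pool, of the 9 cyclins and CDK inhibitors without a flagged spot (orange) and of the measured genes of 8 other cell cycle lists (blue), 1 point per gene; black bars are medians and dotted lines mark 2-fold. S phase and proliferation markers have a median of -0.76, pocket proteins and E2F factors one of -0.01, and Ccne1 (-2.60) lies below every other gene shown.

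Markers of several cell types also differed between the pools. Of all genes measured, 2.94% were at least 2-fold higher, 4.29% at least 2-fold lower and 42.5% below 0. All 7 markers of granulocyte precursors, early stages of which divide in the bone marrow, were at least 2-fold higher in the TSG-6 pool. Of these, Prtn3 (1.27) fell under 2-fold, to 0.86, in its lowest setting. The summed signal of the 7 was 15200.1 for PBS and 69369.8 for TSG-6. These sums are processed signals before scaling, and the TSG-6 array was dimmer, with a 75th percentile of 2476.4 against 3158.5. Of 6 measured erythroid precursor markers, 2 were 2-fold higher and 2 were below 0 (Tfrc at -0.85 and Gata1 at -0.23), with sums of 12078.3 and 16526.6. Activated stellate cell markers were below 0 in 8 of 8, with 3 at least 2-fold lower and sums of 151517.1 and 79316.7. Cholangiocyte and progenitor markers were below 0 in 3 of 3 measured, with sums of 49089.1 and 22901.8. Most of these sums was Spp1 (44790.2 and 19952.3), while Krt7 was at -0.02, Krt19 at -0.29 and Epcam, with a flagged spot kept, at 0.16. Hepatocyte markers, the check of the tissue, were above 0 in 7 of 7 measured with a median of 0.37. These are bright genes, and the brightest decile of all genes had a median of 0.26. In its lowest setting the hepatocyte median was -0.05. Macrophage (0.25), T and NK cell (-0.06), B and plasma cell (0.21) and endothelial cell (0.25) markers had 0 genes past 2-fold, beside 7.23% of all genes. The part of any of these cell types in the values of Ccne1 and the other members was not tested.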

How the data were processed

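Per the labels' protocols, Cy3-labelled cRNA was prepared from 0.2 ug of RNA per pool. The deposited scanner files hold the intensity of each spot, which the authors extracted with Agilent Feature Extraction (11.5.1.1 per the file headers, 10.7 per the submitters' processing notes), background-subtracted and detrended within the array. The deposited value table holds log2 values, which equalled the log2 processed signal minus 1 constant per array within 0.001 for 99.7% of probes, with column medians of -3.90 (PBS) and -3.77 (TSG-6).

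Levels were log2 processed signals minus each array's 75th percentile over 59305 non-control spots (3158.5 for PBS, 2476.4 for TSG-6). Spots with an outlier flag (3.40% and 6.44%) were left out, and no spot was saturated. A probe counted as measured if 50% or more of its usable spots passed the scanner's background test on both arrays; 73.1% (PBS) and 73.9% (TSG-6) of usable spots passed it. A gene was read from its brightest measured probe. Accessions were named through RefSeq (GRCm38.p6, names only; the array was designed on an older build): 26762 of 55681 probes matched. All 14 probes of the members were well above background on both arrays. Named genes were the members, their main CDKs, all other CDK inhibitors and the 3 genes with the largest differences in each other list. Members and lists were chosen with earlier results of these data known. With 1 array per group, size (2-fold) replaced a test, and precision is limited by there being 2 arrays. The steps were tested on simulated data, made from the PBS array with even noise between spots and the same flags on both arrays. That setting is cleaner than these data, so it does not show how the 2-fold rule performs on them. R 4.3.3, limma 3.58.1 and Python 3.11.15 were used, and 12 alternatives were tried. No genes were ranked by likeness of pattern, since 2 arrays give 1 difference per gene.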

Additional observations from a re-analysis of the deposited data

How the results depend on the processing

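Scaling moved the median difference of all genes by up to 0.29 upward (percentile of unflagged spots) and by -0.41 (spike-in scaling), and directions of members with small differences are not settled. Ccne1 was at least 2-fold lower in 13 of 13 settings, and Ccna2 and Ccnd2 were below 0 in 13 of 13. Several settings left these values unchanged or shifted all genes alike, so the number of settings adds no support. No setting read Ccne1 from its dimmer probe alone, which was at -0.83 under normexp. Ccne2 passed 2-fold with loess (-1.06) and spike-in scaling (-1.24), and was at -0.17 under normexp; the first 2 made 2 members at least 2-fold lower. The stricter filter on dim probes removed Ccne2 and moved the G1/S median from -1.71 to -2.60. The median of the G1 cyclins was 0.0713 with the percentile of unflagged spots, that of the mitotic cyclins -0.0021 with median scaling and -0.30 with spike-in scaling, and that of the CDK inhibitors -0.22 with spike-in scaling. Genes at least 2-fold lower on the whole array numbered 650 as reported, 376 with the percentile of unflagged spots, 1555 with spike-in scaling and 402 under normexp. Those at least 2-fold higher numbered 446 as reported, and 1018, 173 and 290 under these 3, and 907 with no filter on dim probes. Higher genes were 40.7% of those past 2-fold as reported, 73.0% with the percentile of unflagged spots and 10.01% with spike-in scaling. No member was at least 2-fold higher in any setting run (0 of 13). The cause of these shifts was not tested. No paired analysis was possible because each group has 1 array. Signal over background limits Ccne2 and the second Ccne1 probe.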
